A study of Mus musculus with 4 samples.

Results

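Lipocalin 2 (Lcn2) and 9 genes of brain iron handling (Slc22a17, Tfrc, Trf, Slc11a2, Slc40a1, Cp, Hmox1, Aco1 and Ireb2) were described in the hippocampus of mice with and without repeated social defeat stress (R-SDS). The genes were chosen by name, and each was represented by the row of the deposited array table that carried its symbol alone and had the highest mean over the arrays. All 10 were found among 19938 genes, each with 1 such row. Lcn2 was put on the list because of its R-SDS values on these arrays, so its difference is given as a description with no test. The other 9 were taken for their known part in iron handling. They and the gene lists used below were chosen with earlier results of these data known. Total RNA from the hippocampus of male C57BL/6JJmsSlc mice, labelled 11 to 12 weeks old, was measured on Affymetrix whole-transcript arrays, and each label describes a mouse. The R-SDS group (2 arrays) was put with an ICR male, itself screened for stable aggression, for 10 min on each of 10 days, and was kept next to such a male behind a board in between, with a new partner every day. The Control group (2 arrays) lived in divided cages in pairs of unstressed mice that were also changed daily. The groups thus differ at least in the attacks and the strain of the neighbour. The study housed mice alone for a week before the stress, without stating whether this included the Controls. The hippocampus was taken some days after the last stress session, following behaviour tests. No engineered allele is named for any of the mice. By the study's methods the R-SDS mice on the arrays had been selected as susceptible in a social interaction test, whereas the labels give the stress alone. Nothing beyond the sample labels says how independent the mice of a group were, so p-values reflect only the variation among these arrays.

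Neurons take up iron mainly as transferrin (encoded by Trf), which binds the transferrin receptor (Tfrc) and is carried into endosomes. From there the divalent metal transporter (Slc11a2) moves ferrous iron into the cytosol. Ferritin stores the metal, ferroportin (Slc40a1) exports it, and the copper protein ceruloplasmin (Cp) oxidises it so that transferrin can bind it. Haem oxygenase 1 (Hmox1) frees iron from haem. The iron regulatory proteins, encoded by Aco1 and Ireb2, bind iron-responsive elements in the transcripts of ferritin, ferroportin and the transferrin receptor and set their translation or stability by the iron supply. Lipocalin 2 is a secreted acute-phase protein that carries iron bound to siderophores, is stored in neutrophil granules and is made by reactive astrocytes, endothelium and choroid plexus in inflammation. Its cell-surface receptor is encoded by Slc22a17.

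With no detection call, the presence of the labelled tissue's markers could not be tested, and only their levels are given. The 12 genes of hippocampal neurons, among them Prox1 of dentate granule cells and Wfs1 of the CA1 field, had a mean log2 value of 9.17 and 8.96 in the Controls and of 9.24 and 9.09 in the R-SDS mice. Arrays of the same replicate number were alike in spread, with an interquartile range over all rows of 3.34 and 3.37 in Control 1 and R-SDS 1 against 3.06 and 3.11 in Control 2 and R-SDS 2. The difference inside each replicate number (the R-SDS array less the Control array of that number) is therefore given beside that of the group means. R-SDS 1 stood apart in its choroid plexus transcripts, which are described with the cell type markers. A difference between groups in a bulk sample cannot tell fewer cells of a type from less RNA per cell. Probes differ in how well they bind, so the level of one gene is not compared with that of another.

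The promoters of the 3 genes whose R-SDS and Control arrays did not overlap (Lcn2, Tfrc and Ireb2) are shown as sequence context. Groups did not overlap for 18.3% of all genes in either direction, so the 2 of 9 members besides Lcn2 are near that share. Each runs from 250 bases before to 10 bases after an annotated start in RefSeq (build GRCm38.p6), at chr2:32387730-32387989 on the minus strand for Lcn2, chr16:32608646-32608905 on the plus strand for the upstream of the starts annotated for Tfrc, and chr9:54863505-54863764 on the plus strand for Ireb2. Capitals mark matches to a searched motif.
Lcn2: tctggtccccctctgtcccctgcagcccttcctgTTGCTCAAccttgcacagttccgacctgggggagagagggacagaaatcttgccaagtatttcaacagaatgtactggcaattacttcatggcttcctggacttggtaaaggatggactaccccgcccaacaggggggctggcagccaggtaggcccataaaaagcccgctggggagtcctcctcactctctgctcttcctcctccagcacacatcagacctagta
Tfrc: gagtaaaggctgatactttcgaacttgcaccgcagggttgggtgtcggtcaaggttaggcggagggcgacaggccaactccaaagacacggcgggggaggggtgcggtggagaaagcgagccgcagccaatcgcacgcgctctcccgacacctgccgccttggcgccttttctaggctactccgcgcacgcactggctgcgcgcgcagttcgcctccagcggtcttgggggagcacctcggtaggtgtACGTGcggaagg
Ireb2: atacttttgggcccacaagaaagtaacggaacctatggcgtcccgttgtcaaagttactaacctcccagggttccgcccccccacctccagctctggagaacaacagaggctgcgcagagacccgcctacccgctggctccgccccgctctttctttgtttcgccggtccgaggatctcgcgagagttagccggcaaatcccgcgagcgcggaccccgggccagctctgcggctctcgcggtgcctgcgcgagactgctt
The motifs searched on both strands, which may share bases with each other, were TTNNGNAA (bound by C/EBP factors), TTCNNNGAA (bound by STAT factors), the NF-kB motif and ACGTG (the core of the hypoxia response element). The Lcn2 window held 1 match to TTNNGNAA, which 37.7% of the 32851 windows of this length also held. The Tfrc window held 1 match to ACGTG across the annotated start, as 17.3% of all windows held that motif. The Ireb2 window held no match to the 4 motifs. The STAT motif was in 7.33% and the NF-kB motif in 4.02% of all windows and in none of the 3 shown. The windows of Tfrc and Ireb2 were rich in CG dinucleotides, with 27 and 25, against 3 in the Lcn2 window and a median of 6 over all windows. Windows were found for 6 of the 10 genes, and in each of the 2 windows of Cp, whose product is also an acute-phase protein, there was 1 match to TTNNGNAA.

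The 2 R-SDS arrays carried far more Lcn2 signal than either Control array. Its log2 RMA values were 4.57 and 4.56 in Control 1 and Control 2. R-SDS 1 reached 7.80, and R-SDS 2 reached 6.47. Control and R-SDS mice averaged 4.57 ± 0.0086 and 7.13 ± 0.94 (SD, n = 2 in each group), which is a log2 difference of 2.57 or a 5.93-fold higher level. The Control mice were nearly equal, differing by 0.012, whereas R-SDS 1 exceeded R-SDS 2 by 1.33, so the spread of Lcn2 lay within the stressed group. The R-SDS level was 9.35-fold that of the Control within number 1 (a log2 difference of 3.23) and 3.75-fold within number 2 (1.91). Whether the Control signal was above background is not known, so these folds are ratios of RMA values only. The Control values were dim, in the low range of their arrays, whose lower quartile stood at 4.88 in Control 1 and at 5.08 in Control 2. The difference was 1.90 without R-SDS 1 and 3.23 without R-SDS 2.

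**Figure D1:**
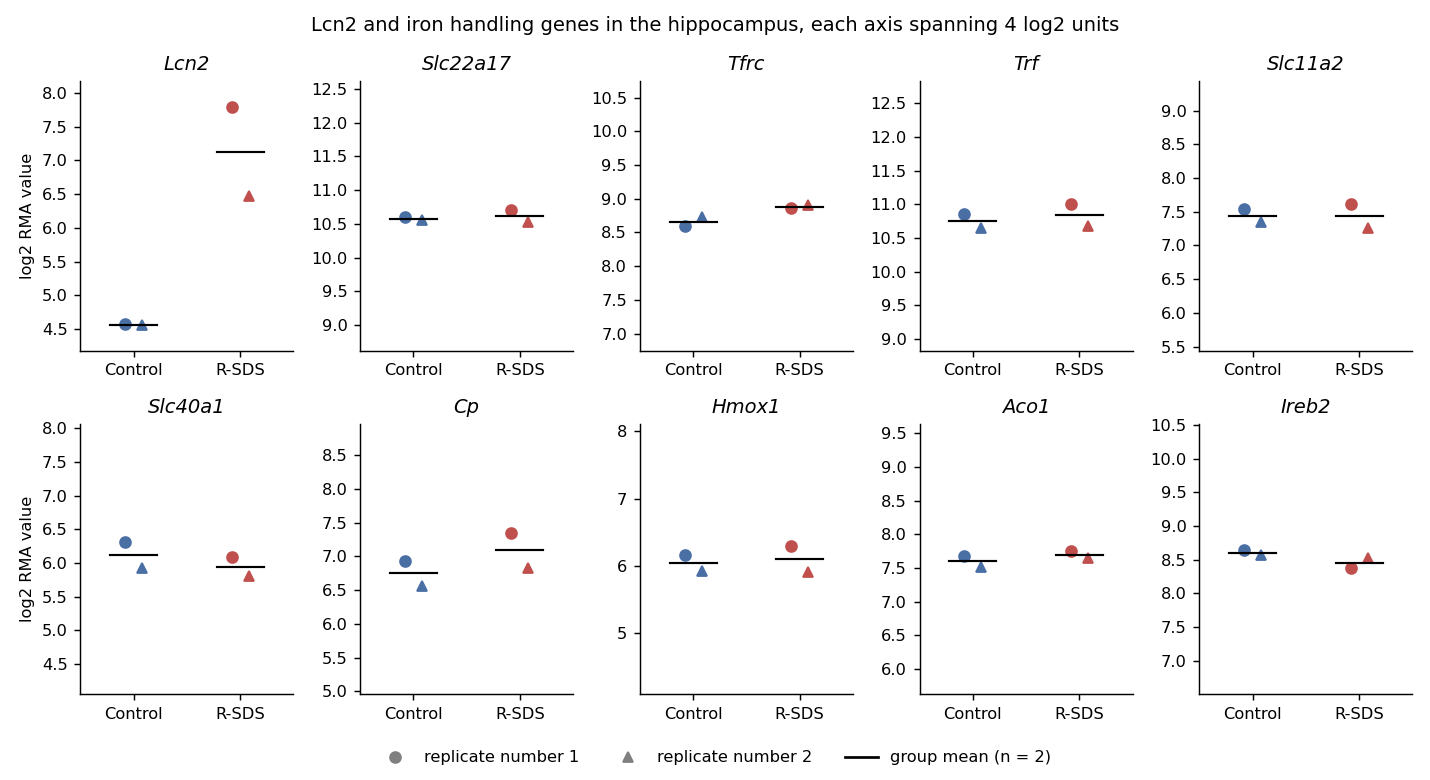
Log2 RMA values (vertical axes, each spanning 4 log2 units) of Lcn2 and the 9 iron handling genes by group, 1 point an array, circles for replicate number 1, triangles for number 2 and a bar for the mean of each group (n = 2). The R-SDS points of Lcn2 stand at 7.80 and 6.47 above Control points near 4.57, while the points of each other gene lie within 1 log2 unit of each other.

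Lcn2 held first place in the group difference among the 21789 tested transcripts. It was put on the list for its R-SDS values on these arrays, so its ranks only describe that choice. Within number 2 it was again first, followed by Naip6 (1.59), an inflammasome sensor that stood at -0.018 within number 1, and Ttr (1.36). Within number 1 its rank was 3, after the choroid plexus channel genes Kcnj13 (3.41) and Clic6 (3.25), which within number 2 measured -0.27 and -0.15. Only Lcn2 and Ttr, the transthyretin gene, had differences above 1 within both numbers. Ttr differed from Lcn2 in its Control mice, at 11.38 in Control 1 against 7.43 in Control 2.

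**Figure D2:**
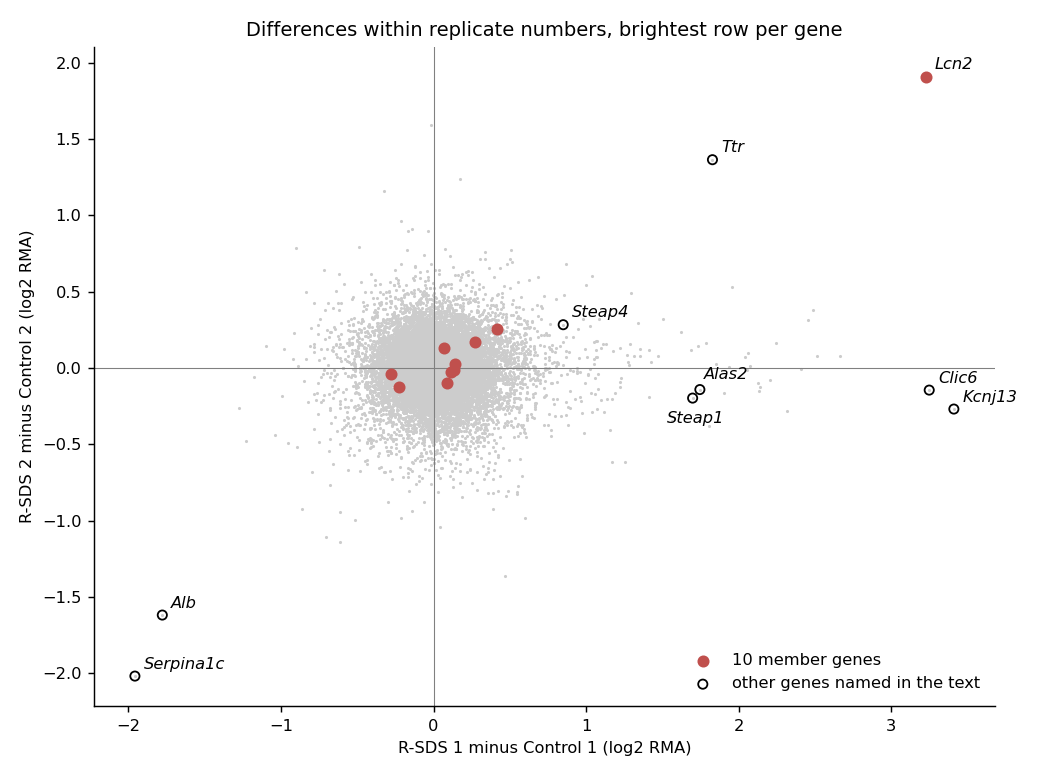
Difference R-SDS 1 minus Control 1 (horizontal axis) against R-SDS 2 minus Control 2 (vertical axis), both in log2 RMA units, for 19938 genes in grey, the 10 member genes in red and other named genes as open circles. Lcn2 lies at 3.23 and 1.91 in the upper right, the choroid plexus genes Kcnj13 and Clic6 lie far right near 0 on the vertical axis, and the other 9 members lie in the central cloud.

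Among the 17138 genes compared, the profile nearest to that of Lcn2 was still well apart from it. Predicted genes, small RNAs and chemosensory receptor genes were passed over. Likeness was measured as the Euclidean distance between the log2 values of 2 genes over the 4 arrays, each gene set to 0 at the mean of its Controls, on which a gene with no change in any array would lie 3.75 from Lcn2. The nearest were Tmem72 (1.71), the water channel gene Aqp1 (1.88), the folate receptor gene Folr1 (2.03), Sostdc1 (2.08) and the retinol dehydrogenase gene Rdh5 (2.10). Their differences within number 1 ran from 1.95 (Aqp1) to 2.66 (Folr1), but within number 2 from 0.079 (Folr1) to 0.53 (Aqp1), below the 1.91 of Lcn2. Of these 5, 4 (Tmem72, Aqp1, Folr1 and Sostdc1) are on the choroid plexus list described below.

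Among the other 9 members limma called 0 at a Benjamini-Hochberg adjusted p of 0.05 over all 21789 transcripts, of which 0% were called, and each of the 9 had an adjusted p of 1. In this limma fit of all 4 arrays without a block, the smallest unadjusted p of the 9 was 0.149, for Tfrc. None of the 9 thus passed an unadjusted p of 0.05 in limma, against 1.01% of all transcripts. Cp passed it in other limma fits, which are given with its values. Group means were higher in R-SDS mice for 6 and lower for 3 of these 9, where 53.4% of all genes were higher, and the median difference was 0.060 against 0.0089 over all genes. Both R-SDS arrays lay above both Controls for Tfrc, as for 9.52% of all genes, and both lay below for Ireb2, as for 8.81% of all genes. Within both numbers, 4 of the 9 were higher (Tfrc, Trf, Cp and Aco1, against 27.8% of all genes) and 2 were lower (Slc40a1 and Ireb2, against 22.3%). The methods' t-test and limma blocked on the replicate number also called 0 of the 9 after adjustment.

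The lipocalin receptor gene Slc22a17 measured 10.60 and 10.55 in the Controls and 10.71 and 10.52 in the R-SDS mice, so that the groups overlapped. The log2 difference was 0.043 (SE 0.14), with a 95% interval from -0.29 to 0.38, and it was -0.051 without R-SDS 1. The 3 further genes of the siderophore route also overlapped between the groups, with differences of 0.021 for Bdh2, which makes a mammalian siderophore, -0.0013 for the endocytic receptor gene Lrp2 (megalin) and 0.032 for Mc4r, a melanocortin receptor gene whose product also binds lipocalin 2.

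Among the genes of iron uptake, the transferrin receptor gene Tfrc had higher values in both R-SDS mice. Its Control values were 8.59 and 8.73, and its R-SDS values 8.86 and 8.90. The groups did not overlap, and the difference of 0.22 (SE 0.13, 95% interval -0.10 to 0.545) was 0.27 within number 1 and 0.17 within number 2. Leaving out any single array gave 0.15 to 0.29.

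Transferrin itself is made in brain by oligodendrocytes and choroid plexus. Its gene Trf measured 10.86 and 10.65 in the Controls and 11.00 and 10.68 in R-SDS mice, an overlapping difference of 0.085 (SE 0.17) that was -0.076 without R-SDS 1 and -0.017 without Control 2. The importer gene Slc11a2 measured 7.54 and 7.35 against 7.62 and 7.26, with a difference of -0.0053 (SE 0.17) that was 0.18 without R-SDS 2 and 0.087 without Control 1. For both genes the replicate numbers lay further apart than the groups. Trf is also on the list of hepatocyte genes, of which 13 of 17 had lower means in R-SDS mice and 7 had both R-SDS arrays below both Controls (8.81% of all genes had), led by Serpina1c (-1.99, adjusted p of 1 in limma) and Alb (-1.70, adjusted p of 0.264 in limma), which encode secreted plasma proteins. Its part in the value of Trf was not tested.

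Of the 18 genes fixed as a list of uptake and import, 17 were measured, of which 0 passed the adjusted p, 14 had higher means in R-SDS mice (as had 53.4% of all genes) and 5 lay above both Controls (as did 9.52% of all genes). The larger values belonged to genes of the STEAP family, some of which encode reductases of ferric iron in endosomes and at the cell surface. Steap4 had Control values of 4.31 and 4.55 and R-SDS values of 5.16 and 4.83, a difference of 0.57 (SE 0.17) with no overlap, and 0.40 without R-SDS 1. Steap1 (0.75, SE 0.56) and Steap2 (0.57, SE 0.46) were high in R-SDS 1 alone, at 5.68 and 7.94, with 3.79 and 6.46 in R-SDS 2, and without R-SDS 1 they stood at -0.20 and -0.17. Without R-SDS 2, Steap1 (1.70) passed the adjusted p in limma. The choroid plexus list was also highest in R-SDS 1, with a mean log2 value of 8.64. It was 6.25 in Control 1, 5.60 in Control 2 and 5.74 in R-SDS 2. The part of the choroid plexus in the STEAP values was not tested.

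The ceruloplasmin gene Cp had the next largest difference of the members after Lcn2, but its groups overlapped. It measured 6.94 and 6.57 in the Controls and 7.35 and 6.82 in the R-SDS mice, so that R-SDS 2 lay below Control 1. The difference was 0.34 (SE 0.22, 95% interval -0.21 to 0.88), with 0.42 within number 1 and 0.26 within number 2, and it was 0.070 without R-SDS 1 and 0.15 without Control 2. Blocked on the replicate number, Cp had an SE of 0.0941 and an unadjusted p of 0.0195 in limma (adjusted p of 0.96), and without R-SDS 2 its difference was 0.60 with an unadjusted p of 0.0237 in limma (adjusted p of 1). The iron exporter gene Slc40a1 went the other way, at 6.31 and 5.93 in the Controls and 6.09 and 5.80 in the R-SDS mice. Its groups overlapped as well, with a difference of -0.18 (SE 0.19), -0.23 within number 1 and -0.12 within number 2, which was 0.017 without Control 1 and -0.035 without R-SDS 2.

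The other ferroxidase gene, Heph (hephaestin), measured 5.56 and 5.54 against 5.93 and 5.67, a difference of 0.25 (SE 0.15) with no overlap that was 0.12 without R-SDS 1. Of the 6 genes of export and ferroxidases 5 were higher in mean, of which Hephl1 differed by 0.11 and Mapt by 0.079, and 0 passed the adjusted p. Of the 6 storage genes 5 were higher in mean, 0 passed, and the median difference was 0.039. Over all genes 53.4% were higher in mean, with a median difference of 0.0089. The ferritin light chain gene Ftl1 measured 9.36 and 9.33 in the Controls and 9.67 and 9.40 in R-SDS mice (difference 0.19, SE 0.15). The heavy chain gene Fth1 stood at 12.88 and 12.76 against 12.87 and 12.85 (difference 0.043, SE 0.13), which is within the range of the Controls. The chaperone gene Pcbp1 differed by 0.095 and the mitochondrial ferritin gene Ftmt by -0.080.

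Hmox1, which encodes the inducible haem oxygenase, overlapped between the groups. It measured 6.16 and 5.93 in the Controls and 6.29 and 5.91 in the R-SDS mice. The difference of 0.060 (SE 0.18, 95% interval -0.38 to 0.50) was -0.13 without R-SDS 1 and -0.053 without Control 2. The haem list of 20 genes had 19 measured members, of which 10 were higher and 9 lower in mean and 0 passed the adjusted p. The largest value was that of Alas2, the erythroid enzyme that opens haem synthesis, with Control values of 5.66 and 5.94 and with 7.41 in R-SDS 1 but 5.80 in R-SDS 2 (difference 0.80, SE 0.49, -0.002 without R-SDS 1, and 1.61 without R-SDS 2, where it passed the adjusted p in limma). Flvcr2 (0.34, SE 0.18), a transporter of endothelium, and Slc46a1 (0.33, SE 0.20), a folate and haem carrier, came next. Of the Nrf2 targets, a group of antioxidant genes to which Hmox1 belongs, 12 of 13 were measured. Among these, 9 were higher in mean (53.4% of all genes were), 0 passed and the median was 0.044. Their leading genes Nqo1 (0.38) and Nfe2l2 (0.26), the latter encoding Nrf2 itself, stood at -0.042 and -0.10 without R-SDS 1. The third in size, Txnrd1, stood at 0.12, and at -0.011 without Control 2.

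The genes of the iron regulatory proteins pointed in opposite directions. Ireb2, which encodes the regulatory protein that is degraded when iron is plentiful, measured 8.65 and 8.56 in the Controls and 8.37 and 8.52 in the R-SDS mice. The groups did not overlap, though Control 2 and R-SDS 2 lay close, and the difference was -0.16 (SE 0.14, 95% interval -0.49 to 0.17), with -0.28 within number 1 and -0.040 within number 2. Without R-SDS 1 it was -0.082. Aco1, whose product serves as a cytosolic aconitase when it holds an iron-sulphur cluster, measured 7.68 and 7.51 against 7.75 and 7.64. Its groups overlapped, and its difference was 0.10 (SE 0.14), 0.071 within number 1 and 0.13 within number 2, with 0.015 without Control 2 and 0.045 without R-SDS 1. Fbxl5, the iron-sensing ligase subunit that marks the Ireb2 protein for degradation, differed by -0.095 (SE 0.16), at -0.25 within number 1 and 0.055 within number 2. Skp1 and Epas1, each at 0.080, were as close to 0 on the scale of their SE of 0.17 and 0.14.

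Of the 9 measured transcripts known to bear an iron-responsive element, 6 were higher in mean (53.4% of all genes were). Of the 9, 0 passed and the median difference was 0.080. Those with the element behind the coding region, where binding stabilises the message, differed by 0.22 (Tfrc), -0.0053 (Slc11a2), 0.094 (Cdc14a) and -0.053 (Cdc42bpa). Those with it ahead of the coding region differed by 0.043 (Fth1), 0.19 (Ftl1), -0.18 (Slc40a1), 0.080 (Epas1) and 0.80 (Alas2). Neither set pointed in 1 direction.

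The lists of systemic iron control and of iron use were also without a call. Of the 18 genes of hepcidin regulation, 8 were higher and 10 lower, with a median of -0.0094. Bmp6, the ligand that drives hepcidin, measured 7.85 in R-SDS 1 and 6.74 in R-SDS 2 against 6.80 and 6.68 (0.55, SE 0.34, of which 1.05 within number 1 and 0.056 within number 2). The hepcidin gene Hamp was lower within both numbers (-0.39, SE 0.25) but overlapped, at 4.69 and 5.09 against 4.19 and 4.83. Its values lay near or below the lower quartile of their arrays. The haemochromatosis gene Hfe differed by 0.30 (SE 0.21), all of it within number 1 (0.68, against -0.069). For mitochondrial iron and iron-sulphur cluster assembly, 12 of 15 measured genes were higher in mean (53.4% of all genes were). Within both numbers 6 were higher (27.8% of all genes were). The median was 0.031, against 0.0089 over all genes, and the cluster assembly genes Iba57 (0.26), Hscb (0.16) and Glrx5 (0.11) led. Of 12 genes of ferroptosis, the iron-dependent cell death by lipid peroxidation, 10 were higher in mean and 6 within both numbers, with a median of 0.070. The largest beside Tfrc were Chac1 (0.16), Slc3a2 (0.16) and Ptgs2 (0.14). Without the members, 55 of 83 measured iron genes were higher in mean (53.4% of all genes were), with a median of 0.032, 11 had both R-SDS arrays above both Controls (9.52% of all genes had) and 1 had both below (8.81%). With 0 past the adjusted p, 1 of the 83, Steap4, passed an unadjusted p of 0.05, as did 1.01% of all transcripts.

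**Figure D3:**
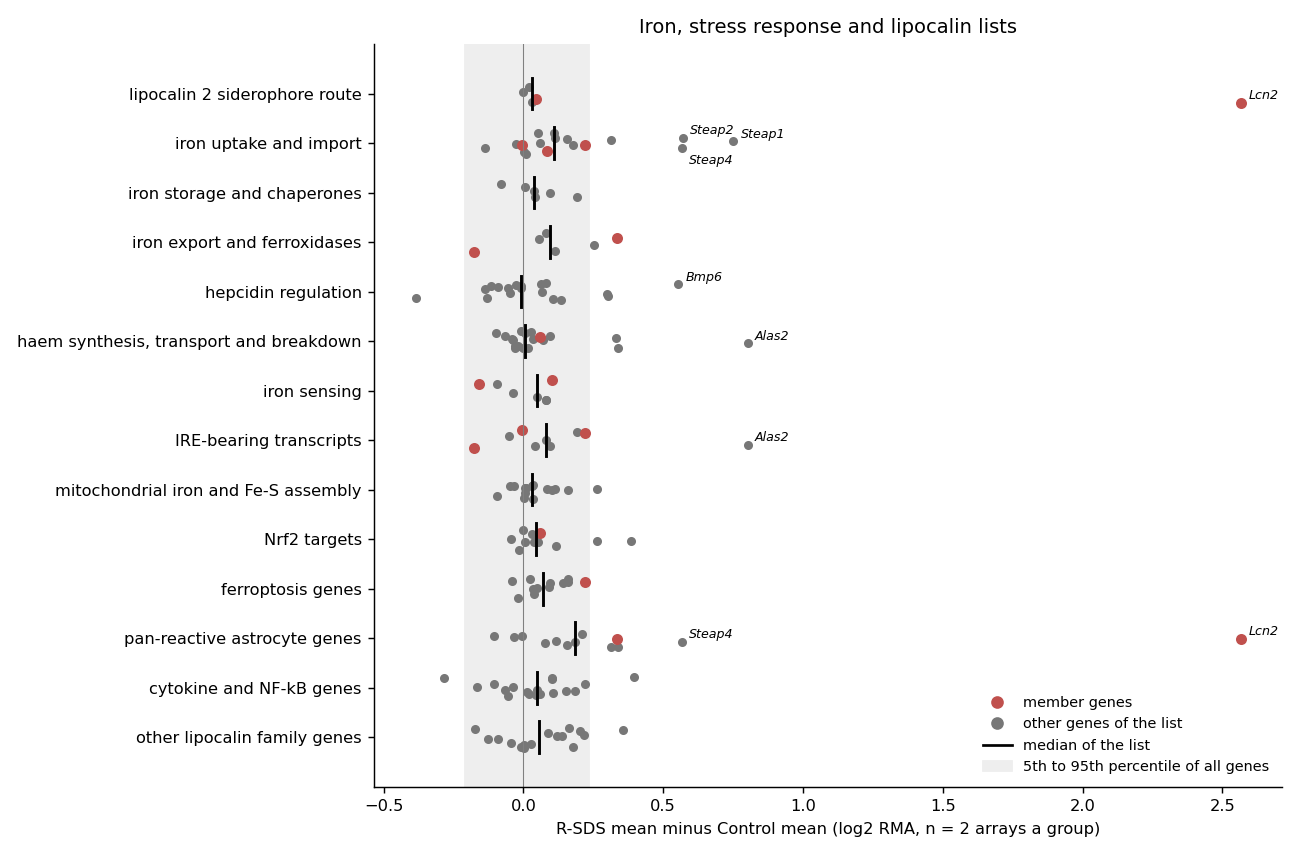
R-SDS mean minus Control mean (horizontal axis, log2 RMA, n = 2 arrays a group) for each measured gene of 14 lists (rows), with members in red, other genes in grey, the median of a list as a black bar and the 5th to 95th percentile of all genes (-0.21 to 0.24) shaded. Lcn2 stands alone at 2.57, and genes beyond 0.5 are named. The vertical scatter within a row has no meaning.

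Lcn2 belongs to a set of genes known to be raised in reactive astrocytes of any kind, of which Cp and Steap4 are also members. All 13 were measured. Of the 12 without Lcn2, 9 were higher in mean (53.4% of all genes were), 8 were higher within both numbers (27.8% of all genes were), and 2 (Steap4 and Osmr) had both R-SDS arrays above both Controls (9.52% of all genes had). Their median difference was 0.17, with 0.20 within number 1 and 0.14 within number 2, and 0 of the 12 passed the adjusted p. Osmr, the oncostatin M receptor gene, measured 6.41 and 6.20 in the Controls and 6.72 and 6.56 in the R-SDS mice (0.34, SE 0.15). Vim, the intermediate filament gene vimentin, measured 8.48 and 8.14 against 8.79 and 8.46 (0.31, SE 0.19), and differed by 0.31 within each number although the groups overlapped. Gfap, the astrocyte filament gene, differed by 0.15 (SE 0.19) and was -0.017 without Control 2, and the cytokine-induced genes Timp1 and Cxcl10 differed by -0.033 and -0.0046.

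The cytokines and NF-kB genes that act upstream of Lcn2 or are induced with it had no call. Of 18 measured genes 12 were higher and 6 lower in mean (53.4% of all genes were higher). Their median was 0.047, and 0 passed the adjusted p. Il6 (-0.066, SE 0.18) and Il1b (-0.038, SE 0.22) overlapped between the groups, with Il6 at 1.75 to 2.14, near the lower end of the scale. The acute-phase gene Saa3, which is often induced together with Lcn2, was lower in R-SDS mice. It measured 3.64 and 3.95 in the Controls against 3.42 and 3.60 (-0.29, SE 0.16), each below the lower quartile of its array. The adhesion molecule genes Vcam1 (0.39, SE 0.25) and Icam1 (0.10, SE 0.19) overlapped between the groups, and Vcam1 was 0.033 without R-SDS 1. Tnf differed by 0.22 (SE 0.20), and by -0.037 without R-SDS 2.

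Markers of other cells that make or carry these proteins were read beside Lcn2. All 12 measured choroid plexus genes were higher within number 1, by a median of 2.26, and 6 of 12 within number 2, with a median of -0.036. Their mean log2 value was 6.25 in Control 1 and 5.60 in Control 2, and 8.64 in R-SDS 1 and 5.74 in R-SDS 2. In R-SDS 2 these markers had a median of -0.16 from the Control mean, but some exceeded Control 2, by 1.36 (Ttr), 0.53 (Aqp1), 0.38 (Tmem72) and 0.31 (Sostdc1), where Lcn2 exceeded it by 1.91. The higher value of Lcn2 in R-SDS 1 than in R-SDS 2 went along with the choroid plexus markers, whose part in the values of Lcn2 was not tested.

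The 14 neutrophil genes were all measured, with 8 higher and 6 lower in mean, and 4 higher within number 2. The granule genes Ngp and Camp differed by -0.16 and 0.057, and the leading S100a8 (0.57) and S100a9 (0.28) were 1.22 and 0.65 within number 1 but -0.092 and -0.10 within number 2. Their mean log2 value was 4.59 and 4.87 in the Controls and 4.85 and 4.75 in the R-SDS mice. That of the red blood cell and platelet list, of which 4 of 9 genes were measured, was 5.19 and 5.33 in the Controls, 6.15 in R-SDS 1 and 5.40 in R-SDS 2. Alas2 is on that list, as is the platelet chemokine gene Ppbp (0.78), and the part of blood in the value of Alas2 was not tested. Brain endothelial genes had a median of 0.32 within number 1 and 0.073 within number 2, led by Flt1 (0.40) and Emcn (0.37). Of these genes 8 of 10 were higher in mean, against 53.4% of all genes. Medians of the other lists were 0.018 for microglia, -0.066 for oligodendrocytes and 0.097 for astrocytes, and 0 genes of any of these lists passed the adjusted p in limma.

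**Figure D4:**
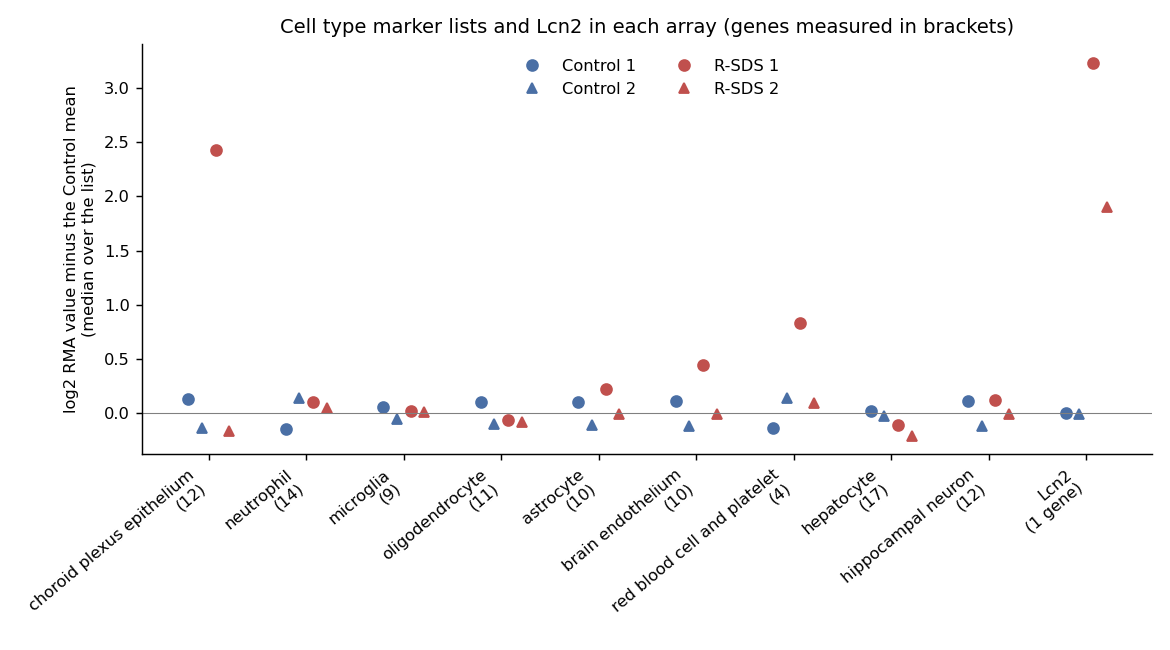
Median over each marker list of the log2 RMA value minus the Control mean (vertical axis) in each of the 4 arrays, with the number of genes measured in brackets, circles for replicate number 1 and triangles for number 2, and the same value of Lcn2 at the right. R-SDS 1 stands at 2.43 for the choroid plexus list and R-SDS 2 at -0.16, whereas Lcn2 is high in both.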

How the data were processed

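The authors made the deposited log2 values with the RMA method in the Expression Console program. RMA corrects the background, aligns the probe distributions of the arrays and combines probes into 1 value per row. Which arrays were normalised together was not given in the sources used here, nor was a genome build. The labels and the study name different labelling kits. Of 35556 rows, 21789 had 1 symbol in the platform annotation, 1621 had several and 12146 were not listed. Of the Entrez identifiers, 99.6% matched the RefSeq table, and 0 symbols changed. R-SDS and Control arrays were compared with limma 3.58.1 in R 4.3.3 on all 21789 rows, two-sided and without covariates. Adjustment was by the Benjamini-Hochberg method, with a threshold of 0.05. The procedure was tested on simulated independent arrays with no replicate-number effect. That cannot show how it performs where arrays of 1 number are alike. Standard errors are limma's, with 2 residual and 4.07 prior degrees of freedom. Lists use the brightest row per gene. Plots were drawn with matplotlib 3.10.9. Promoters came from RefSeq (GRCm38.p6). Arrays have no sequencing depth, so precision is limited by their number.

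The members and lists were chosen with earlier results of these data known. The genes named are the members, up to 3 further genes with the largest differences of each pathway list, up to 2 of each cell type list with its defining markers where needed, the 5 nearest to Lcn2, and Icam1, Vcam1 and Ttr. Others (Naip6, Clic6, Fth1, Gfap, Timp1, Cxcl10, Il6, Il1b, Ptgds, Apod and the transcripts with iron-responsive elements) were named after their values were seen. Alternatives were the replicate number as a block, a further quantile normalisation, a filter for brighter rows, all rows, leaving out each array and the methods' t-test (Student's, unpaired).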

Additional observations from a re-analysis of the deposited data

How the results depend on the processing

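Lcn2 was higher in R-SDS mice under every alternative that measured it, at 1.90 (without R-SDS 1) to 3.23 (without R-SDS 2) when single arrays were left out. The filter for brighter rows removed Lcn2, Slc40a1 and Hmox1, so no value could be had there. Lcn2 itself was given no test. No other member passed an adjusted p of 0.05 under any of the alternatives, in limma or by the methods' t-test. Over all transcripts 0 to 49 passed when an array was left out, with 49 without R-SDS 2 and 2 without R-SDS 1, and for the pathway lists this count was 0 to 2, with 2 (Steap1 and Alas2) without R-SDS 2, where the lone R-SDS 1 is assumed to vary like the Controls. The number of members whose groups did not overlap was 3 of 10 (2 of 9 without Lcn2, against 18.3% of all genes). It was 4 after the further quantile normalisation, and 4 to 9 with fewer arrays, since fewer arrays overlap less. Signs turned when 1 array was left out for Hmox1 (-0.13 to 0.25), Slc11a2 (-0.19 to 0.18), Slc22a17 (-0.051 to 0.14), Slc40a1 (-0.37 to 0.017) and Trf (-0.076 to 0.24). The signs of Cp, Tfrc, Aco1 and Ireb2 held. At an unadjusted p of 0.05, Cp alone of the 9 passed in limma, with the block (0.0195) and without R-SDS 2 (0.0237). The groups share replicate numbers by name, and the labels do not say what the numbers mark. Deviations of same-numbered arrays correlated at 0.517 over transcripts. Number 1 against number 2 gave 5893 of 21789 transcripts past an unadjusted p of 0.05 in limma, against 221 for R-SDS against Control. With the replicate number as a block, 0 transcripts passed the adjusted p and 1047 an unadjusted p of 0.05, against 221 without it and 440 by the methods' t-test, and the differences of the members were the same. Each member had 1 row, so the alternatives on the choice of row gave the same values.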

Other observations

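The lipocalins are small secreted carriers of retinoids, steroids, pheromones and other hydrophobic molecules. Of 16 further family genes measured, 11 had higher and 5 lower means under stress (53.4% of all genes were higher). The median of their differences was 0.057 (log2), and 0 passed the adjusted p in limma. Ambp, the alpha-1-microglobulin gene, whose product binds haem, measured 4.31 and 4.27 in the Controls and 4.64 and 4.65 in the R-SDS mice, a difference of 0.35 (SE 0.13) that was 0.34 to 0.37 without any single array and lay in a dim range. Lcn3 (0.22) and Lcn5 (0.20), expressed in nasal glands and epididymis, came next. The abundant brain lipocalins Ptgds, the prostaglandin D synthase, and Apod, an apolipoprotein of glia, differed by 0.0013 and 0.12.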
